A study of Mus musculus with 14 samples.

Results

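The interferon receptor cluster of mouse chromosome 16 comprises Ifnar1, Ifnar2, Ifngr2 and Il10rb, 4 cytokine receptor genes that lie side by side on the plus strand. They were taken by name: loci of the gene table were named through the deposited transcript map, and where a symbol named several loci the one with the highest mean was kept. All 4 were found among 17442 named genes, in a table of 59796 loci. RNA of the embryonic hippocampus (embryonic day 16 to 18) was sequenced in 14 libraries from 2 mouse models of Down syndrome, each set beside its own wild-type littermates. The 189N3 mice carry an extra Dyrk1a locus on a bacterial artificial chromosome, and with it no extra copy of the receptor genes (3 libraries, and 3 of littermates). The Dp(16)1Yey/+ mice carry a duplication of the part of chromosome 16 from Lipi to Zfp295, which holds all 4 receptor genes, so that these are present in 3 copies against 2 in the littermates (4 libraries, and 4 of littermates). Both extra segments are germline and present in every cell, and RNA was made from whole dissected hippocampi. Nothing says in so many words that each library came from 1 embryo, so p-values measure the spread between libraries, and fewer cells of a type cannot be told apart from less RNA per cell.

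IFNAR1 and IFNAR2 are the chains of the receptor for type I interferons, which act through the kinases TYK2 and JAK1 on transcription factors that include STAT2 and IRF9 and switch on interferon-stimulated genes. IFNGR2 is the signalling chain of the interferon-gamma receptor, beside the ligand-binding chain IFNGR1, and brings JAK2 to it. IL10RB is the shared chain of the receptors for interleukin-10, interleukin-22 and the lambda interferons. The orthologous human genes stand in the same cluster on the chromosome that is trisomic in Down syndrome.

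On GRCm38 (the assembly also called mm10) the genes lie on chromosome 16 in the order Ifnar2 (91372783 to 91405589), Il10rb (91406164 to 91425834), Ifnar1 (91485238 to 91507441) and Ifngr2 (91547072 to 91565623). They span 192.8 kb, with 0.574 kb between Ifnar2 and Il10rb, and no other named gene that passed the filter lies among them. The 250 bases before the RefSeq start are shown for the 3 members with an entry in the RefSeq promoter table (GRCm38.p6, plus strand, 5′ to 3′), because the genes were measured together and their starts differ in sequence. Capitals mark GC boxes (GGGCGG), gamma-activated sites (TTCNNNGAA) and ETS sites (CCGGAAGT) on either strand. They are at chr16:91372533-91372782 for Ifnar2, chr16:91484965-91485214 for Ifnar1 and chr16:91546809-91547058 for Ifngr2.
Ifnar2: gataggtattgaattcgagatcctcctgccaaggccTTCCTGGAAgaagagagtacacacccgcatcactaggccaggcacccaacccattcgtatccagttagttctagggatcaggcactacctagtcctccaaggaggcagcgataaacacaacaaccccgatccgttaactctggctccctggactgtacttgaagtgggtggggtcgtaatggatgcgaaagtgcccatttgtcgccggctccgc
Ifnar1: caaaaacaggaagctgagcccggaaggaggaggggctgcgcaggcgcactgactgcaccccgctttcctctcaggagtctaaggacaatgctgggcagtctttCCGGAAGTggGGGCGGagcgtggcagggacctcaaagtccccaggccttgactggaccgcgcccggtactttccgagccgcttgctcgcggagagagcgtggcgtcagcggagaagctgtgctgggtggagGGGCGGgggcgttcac
Ifngr2: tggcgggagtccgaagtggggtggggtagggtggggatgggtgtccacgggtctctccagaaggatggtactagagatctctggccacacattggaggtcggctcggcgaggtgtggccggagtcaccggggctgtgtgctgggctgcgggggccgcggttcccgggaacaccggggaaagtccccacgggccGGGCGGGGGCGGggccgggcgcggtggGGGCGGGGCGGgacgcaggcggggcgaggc

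The Ifnar2 window held 1 gamma-activated site, a motif found in 7.04% of all 32536 promoter windows of that length, and 0 GC boxes. The Ifnar1 window held 2 GC boxes and 1 ETS site, which 33% and 2.90% of windows hold. The Ifngr2 window held 4 GC boxes, 2 pairs of them touching or overlapping, and 1 CCAAT box (CCAAT, 33.8% of windows). The core of the interferon-stimulated response element (GAAA, any 2 bases, GAAA, in 2.98% of windows) and the TATA box (TATAAA, 12.3%) were searched on both strands and not matched in the 3 windows. CpG dinucleotides numbered 11, 19 and 25 in Ifnar2, Ifnar1 and Ifngr2, against a median of 6 over all windows. These matches are descriptions of letters and were not tied to the expression values.

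The libraries held 20809135 to 29098454 fragments, and values are fragments divided by 1 size factor per library. Dyrk1a ranged from 3938 to 5877 in 189N3 mice and from 2126 to 2977 in their littermates, with no overlap, and from 2124 to 4781 in Dp(16)1Yey/+ mice and 2397 to 3175 in theirs, with overlap. The library labelled Dp(16)1Yey/+ replicate 1 stood apart: over the 85 other tested genes of the duplicated region its median log2 difference from the littermate mean was 0.12, against 0.68, 0.57 and 0.39 in replicates 0, 2 and 3. Littermate replicates 2 and 3 had 0.12 and 0.10 by the same measure, so the expression values do not show whether this library carries the duplication. It was kept under its label, and every Dp(16)1Yey/+ mean and fold change over 4 libraries includes it. It also had the highest summed level of erythroid markers, 54579 with 6154 as the lowest of its group, and 4693 to 17372 in the littermates. All 7 tested erythroid markers were higher in Dp(16)1Yey/+ mice (median log2 fold change 1.20) and 0 of 7 in 189N3 mice (median -1.29), none was at 0 in all libraries, and the part of these markers in the results was not tested. Among the Dp(16)1Yey/+ littermates, replicates 0 and 1, and replicates 2 and 3, were nearly alike, with a median squared difference of 1.65 and 2.03 times the counting variance, against 14.8 to 51.3 for every other pair of that line within a group. The members and the gene lists are given with all libraries, without replicate 1 and with these pairs averaged. All 10 markers of hippocampal neurons and progenitors had a mean of at least 10.

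Ifnar1, Ifnar2 and Ifngr2 were moderately expressed and Il10rb was barely so. In the Dp(16)1Yey/+ littermates the level per kb of exon was 385 ± 51.1 for Ifnar1, 330.4 ± 76.7 for Ifngr2, 95.1 ± 5.23 for Ifnar2 and 11.7 ± 2.54 for Il10rb (normalized fragments per kb, SD, n = 4). The first pair differed by less than their spread, whereas Ifnar2 and Il10rb were each clearly below the gene before them. In the 189N3 littermates Ifngr2 came first with 455 ± 30.4, followed by Ifnar1 with 339 ± 34.8, Ifnar2 with 88.0 ± 9.78 and Il10rb with 11.03 ± 1.11 (SD, n = 3). The wild types differ in line and possibly in litter and preparation. On the log2 scale, the 189N3 littermates minus the Dp(16)1Yey/+ littermates gave 0.49 for Ifngr2. The values were -0.18 for Ifnar1, -0.12 for Ifnar2 and -0.06 for Il10rb. How common differences of this size are over all loci was not counted. Il10rb rested on 32 to 71 fragments per library, a counting error of 13.9% at its median of 52, the largest of the 4 genes.

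In Dp(16)1Yey/+ hippocampus the means of all 4 receptor genes were above those of the littermates, by 1.66 times for Ifngr2, 1.47 for Ifnar2, 1.31 for Ifnar1 and 1.20 for Il10rb. Ifnar2 and Ifngr2 were higher in every Dp(16)1Yey/+ library than in any littermate, which held for 1.72% of the 36024 loci tested. No member passed the adjusted threshold in limma, and neither did any other locus (0 of 36024, 0.0%; 1273, or 3.53%, at an unadjusted p under 0.05; edgeR also called 0 and DESeq2 8). At an unadjusted p under 0.05, 2 of the 4 members were higher, against 1.71% of all loci. Both counts are also common in the rest of the duplicated region, where 36 of 85 genes were higher at that p and 28 of 85 had every duplication library above every littermate.

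Ifnar2 measured 665, 347, 484 and 421 in Dp(16)1Yey/+ replicates 0 to 3, and 304, 303, 340.0 and 319.5 in littermate replicates 0 to 3. The groups did not overlap, but replicate 1 of the duplication stood only just above the highest littermate, and replicate 0 far above the rest. The means were 479 ± 136 and 317 ± 17.4 (SD, n = 4 each). The log2 fold change was 0.56 (SE 0.20, 95% interval 0.11 to 1.00), with an unadjusted p of 0.0180 and an adjusted p of 0.909 in limma. An exact two-sided permutation test gave 0.0286, the smallest value that 4 against 4 libraries allow, and 0.133 with the nearly alike littermates averaged, again the smallest possible.

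For Ifngr2, the duplication libraries gave 2524, 1916, 1655 and 2077, and the littermates 996, 997, 1449 and 1537. Here replicate 1 was not low, and replicate 2 was the lowest of the 4, close above the highest littermate. The littermates themselves formed a lower and a higher pair, the same pairs that were nearly alike over the whole table. With means of 2043 ± 365 and 1245 ± 289 (SD, n = 4 each), the log2 fold change was 0.73 (SE 0.20, 95% interval 0.29 to 1.17). Its unadjusted p was 0.00384 and its adjusted p 0.909 in limma. The exact permutation p was 0.0286, or 0.133 with the pairs averaged.

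Ifnar1, the most abundant transcript of the cluster by fragments, gave 4011, 2156, 3390.0 and 2677 in Dp(16)1Yey/+ mice and 2078, 1975, 2573 and 2518 in littermates. Replicate 1 fell inside the littermate range, and the other 3 libraries lay above it. The means were 3058 ± 812 and 2286 ± 303 (SD, n = 4 each), a log2 fold change of 0.39 (SE 0.20, 95% interval -0.06 to 0.84). Neither the model (adjusted p = 0.909, limma) nor the exact permutation test (p = 0.114) passed the threshold.

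Il10rb gave 59.3, 41.1, 61.2 and 52.3 in Dp(16)1Yey/+ mice against 43.3, 32.7, 56.1 and 46.5 in littermates, and the groups overlapped. The means were 53.5 ± 9.09 and 44.6 ± 9.68 (SD, n = 4 each). Its log2 fold change of 0.27 (SE 0.23, 95% interval -0.24 to 0.77) was within the spread, with an exact permutation p of 0.257. The intervals of all 4 genes hold 0.58, the log2 of 3 copies to 2.

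**Figure D1:**
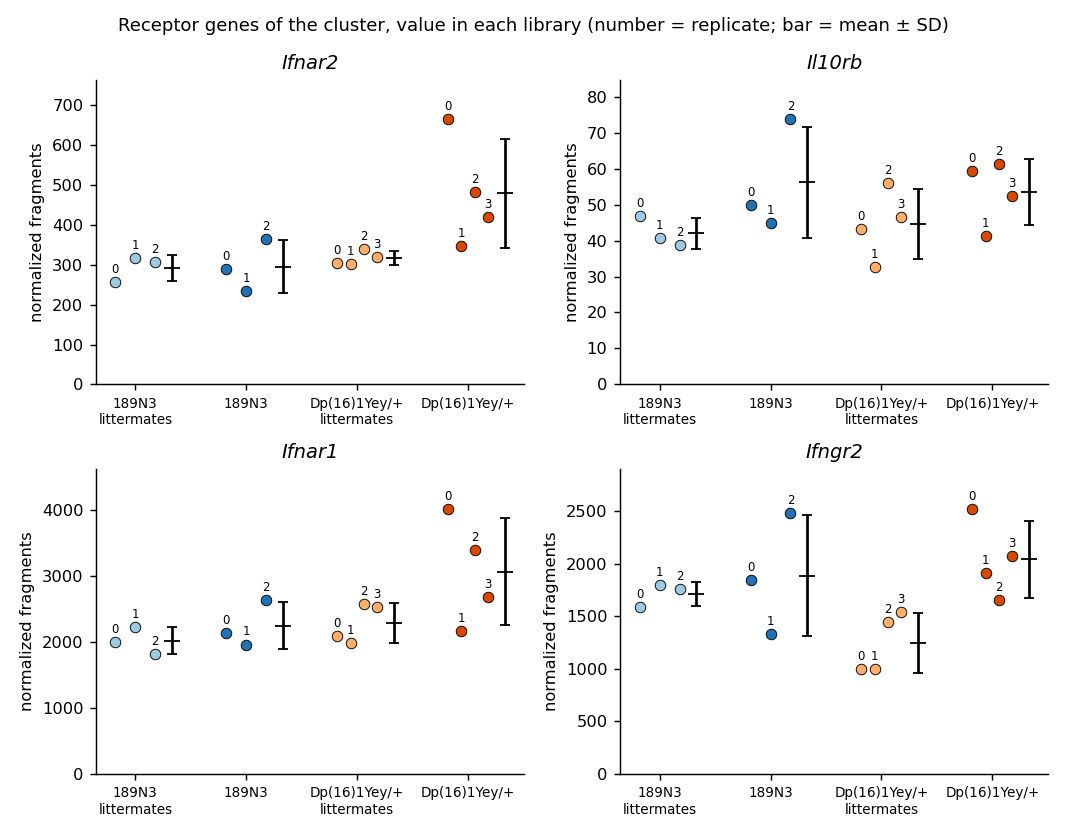
Normalized fragments (vertical axes, starting at 0) of Ifnar2, Il10rb, Ifnar1 and Ifngr2 in each of the 14 libraries, by group; the number at a point is its replicate and the bar beside the points is the mean ± SD. For Ifnar2 and Ifngr2 all 4 Dp(16)1Yey/+ libraries are above all 4 of their littermates, and for the other 2 genes the groups overlap.

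Without replicate 1 the log2 fold changes were 0.70 for Ifnar2, 0.75 for Ifngr2, 0.55 for Ifnar1 and 0.38 for Il10rb. This library was singled out by the low values of the duplicated region in it. A rise of the region's genes without it follows from that choice, so the counts below were not read as support. All but Il10rb were then higher at an unadjusted limma p under 0.05, as were 51 of the 85 other genes of the region, whose median was then 0.54. Of all 35999 loci then tested, 721 were under that p in either direction. With the nearly alike littermates averaged, Ifngr2 alone of the members was under that threshold (1 of 4), as were 26 of 84 other genes of the region. Of all 36051 loci then tested, 271 were under it in either direction. No member passed the adjusted threshold in either case.

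In 189N3 hippocampus, where the receptor genes have the normal copy number, the groups overlapped for each gene, as no member was higher or lower in all 3 libraries than in all 3 littermates (1.99% of 35899 loci were higher in all, and 2.99% lower). No locus passed the adjusted threshold in limma (0.0%; 672, or 1.87%, at an unadjusted p under 0.05, against 0 of the 4 members; edgeR 0, DESeq2 15). Ifnar1 measured 2129, 1956 and 2635 in 189N3 mice and 1994, 2228 and 1816 in littermates. Ifnar2 measured 288, 234 and 364 against 256, 316 and 307. Ifngr2 measured 1845, 1333 and 2487 against 1584, 1798 and 1762. For these 3 genes replicate 2 was above every littermate, and replicate 1 was below every littermate for Ifnar2 and Ifngr2.

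Il10rb measured 49.9, 44.9 and 73.7 in 189N3 mice and 46.8, 40.6 and 38.7 in littermates, with replicate 2 again the highest. The log2 fold changes were 0.15 for Ifnar1 (SE 0.23), 0.10 for Ifngr2 (SE 0.25) and 0.38 for Il10rb (SE 0.29). For Ifnar2 the estimate was -0.00 (95% interval -0.54 to 0.53), an interval that excludes 0.58, whereas those of the other 3 genes hold it. The exact permutation p was 0.500, 1.00, 0.700 and 0.200 for Ifnar1, Ifnar2, Ifngr2 and Il10rb, and 3 against 3 libraries cannot go below 0.10. In replicate 2 the median of the region was also 0.31 above the littermate mean on the log2 scale, against -0.09 in both other 189N3 libraries.

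The effect of the duplication minus that of the Dyrk1a transgene was 0.63 on the log2 scale for Ifngr2 (SE 0.32, 95% interval -0.05 to 1.31) and 0.56 for Ifnar2 (SE 0.30, -0.08 to 1.20). It was 0.24 for Ifnar1 (SE 0.29) and -0.12 for Il10rb (SE 0.34). No member had a limma p under 0.05 for this interaction, adjusted (0.922 to 0.953) or not (0.0659 to 0.739), and 2.66% of 36045 loci did at the unadjusted threshold. The models are therefore not shown to differ in any of the 4 genes.

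**Figure D2:**
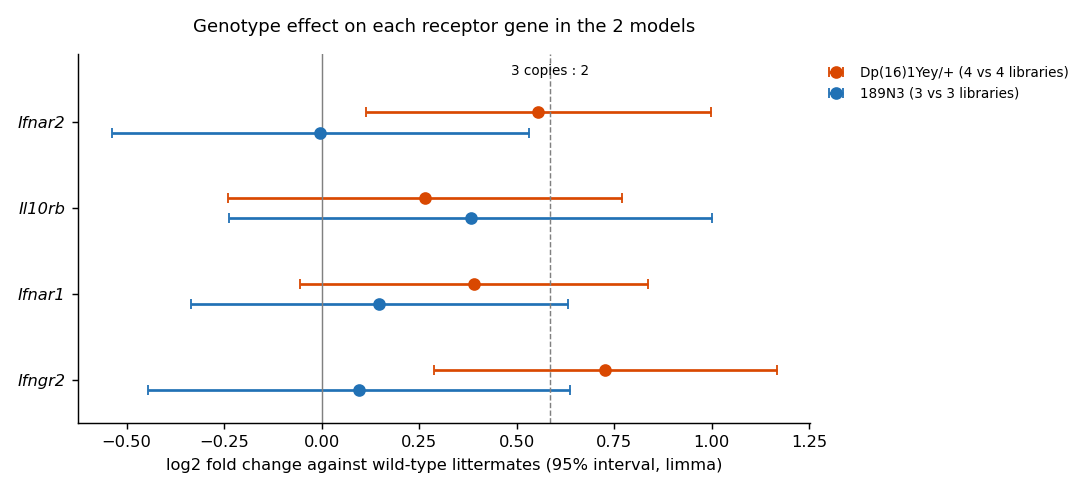
Log2 fold change of each receptor gene against wild-type littermates (horizontal axis, limma) with its 95% interval, in Dp(16)1Yey/+ (4 against 4 libraries) and in 189N3 (3 against 3); the dashed line marks 3 copies to 2. In Dp(16)1Yey/+ only the intervals of Ifnar2 and Ifngr2 lie above 0, and in 189N3 every interval holds 0.

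The level of each receptor gene can be set beside the rest of the duplicated region in the same library. Against the littermate mean, replicate 0 was higher by 1.07 (Ifnar2), 1.05 (Ifngr2), 0.82 (Ifnar1) and 0.43 (Il10rb) on the log2 scale, with a region median of 0.68. Replicate 2 was higher by 0.61, 0.44, 0.58 and 0.47, and replicate 3 by 0.41, 0.77, 0.24 and 0.25, in the same order of genes. Replicate 1, with a region median of 0.12, gave 0.13 for Ifnar2, 0.65 for Ifngr2, -0.08 for Ifnar1 and -0.09 for Il10rb. Ifngr2 was thus the 1 member clearly above the littermate mean in that library.

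**Figure D3:**
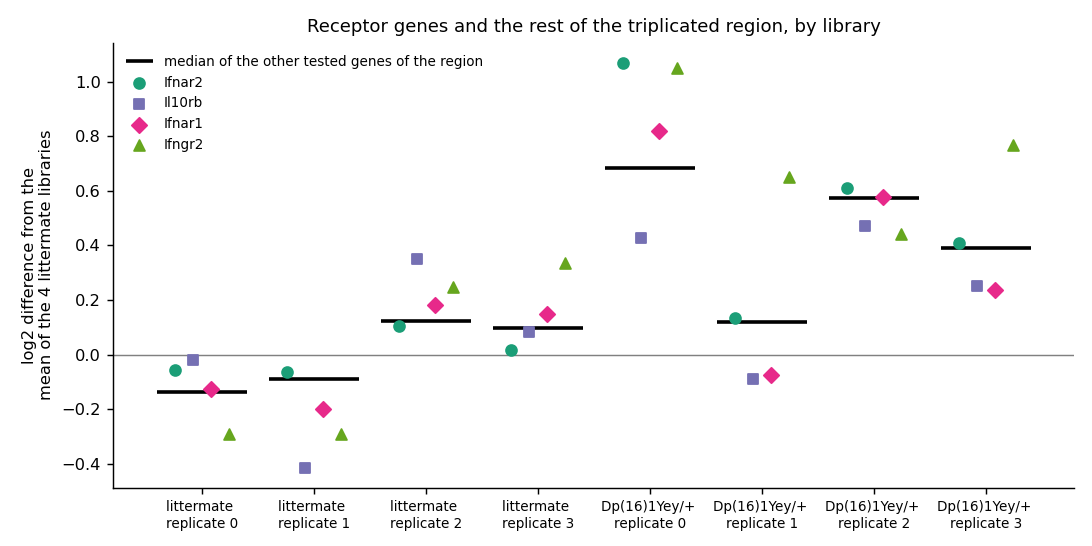
Log2 difference from the mean of the 4 littermate libraries (vertical axis) for each receptor gene, with the median of the 85 other tested genes of the region as a black bar, in the Dp(16)1Yey/+ libraries and their littermates. The region median is 0.68, 0.12, 0.57 and 0.39 in replicates 0 to 3, and in replicate 1 Ifngr2 alone stands far above it.

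Of the 85 other tested genes of the region, 74 were higher and 11 lower in Dp(16)1Yey/+ mice (median 0.42 on the log2 scale), where 54.9% of all loci were higher. In 189N3 mice 43 of 83 were higher, with a median of 0.00. Ranked by fold change among the 89 tested genes of the region, Ifngr2 was in place 8, Ifnar2 in place 33, Ifnar1 in place 50 and Il10rb in place 60, so the cluster covered much of the range of its surroundings. Of the 16 nearest named genes, 8 on each side, 14 were higher, with a median of 0.56. The 8 that follow Ifngr2 were all higher (median 0.66), among them Tmem50b (0.87, SE 0.15), Dnajc28 (0.79, SE 0.15) and Cryzl1 (0.74, SE 0.15), the 3 neighbours with all duplication libraries above all littermates. Tmem50b, on the minus strand, has its 3′ end 8.88 kb after the end of Ifngr2 and encodes a membrane protein, and Dnajc28 carries a DnaJ domain.

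On the other side the median was 0.41, with 6 of 8 higher. The neighbours adjoining Ifnar2, the oligodendrocyte lineage factors Olig1 (-0.63, SE 0.64) and Olig2 (-0.24, SE 0.52), varied widely between libraries. Further out Paxbp1 (0.68, SE 0.21), 4930404I05Rik (0.74, SE 0.24), Eva1c (0.60, SE 0.40), 1110004E09Rik (0.48, SE 0.20), Urb1 (0.34, SE 0.22) and Synj1 (0.17, SE 0.25) were estimated above 0. After Dnajc28 the splicing factor gene Son (0.58, SE 0.20), Donson (0.53, SE 0.19), Gm10785 (0.82, SE 0.25), the purine synthesis gene Gart (0.35, SE 0.19) and Itsn1 (0.12, SE 0.26) were estimated above 0 too. None of the 16 passed the adjusted threshold, and 9 had an unadjusted limma p under 0.05.

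**Figure D4:**
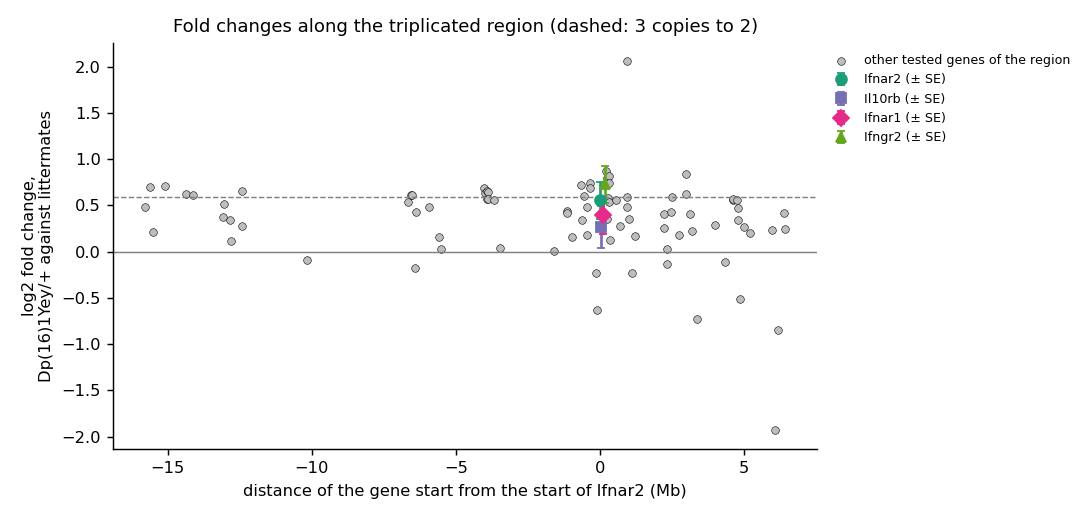
Log2 fold change in Dp(16)1Yey/+ against littermates (vertical axis) for the 89 tested genes of the duplicated region by distance of the gene start from the start of Ifnar2 in Mb (horizontal axis); receptor genes are coloured with SE, other genes grey, and the dashed line marks 3 copies to 2. Most genes lie between 0 and the dashed line or near it, the receptor genes with them.

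The other chains of these receptors are encoded outside the region. The list of partner chains held 8 genes, of which Il20rb and F3 belong to the same receptor family but are not chains of these receptors. Of the 8, 6 were named and 4 passed the filter, Il20rb and F3 among them. All 4 estimates were below 0 in Dp(16)1Yey/+ mice, with a median of -0.10, where all loci had a median of 0.03. At an unadjusted limma p under 0.05 there were 0. Ifngr1, the partner of IFNGR2, was at 144 ± 32.8 in Dp(16)1Yey/+ mice and 152 ± 10.9 in littermates (SD, n = 4 each; log2 fold change -0.11, SE 0.20). Il10ra, the ligand-binding chain for interleukin-10, was near the filter with 12.8 ± 1.42 and 14.1 ± 4.51 (-0.09, SE 0.30). Il20rb (-0.72, SE 0.44) and F3, the tissue factor gene of the same receptor family (-0.07, SE 0.26), did not pass either. Ifnlr1 and Il22ra1 had means under 10 and were not tested. Without replicate 1 the median was -0.17 and 1 of the 4 was lower at an unadjusted limma p under 0.05. Of all 35999 loci then tested, 721 were under that p in either direction. As Il20rb and F3 are among the 4, this count was not read as a result about partner chains. With the littermate pairs averaged the median was -0.11, with 0 under that p.

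Per unit length, Ifngr2 exceeded Ifngr1 by 11.4 ± 4.08 times in Dp(16)1Yey/+ mice (7.30 to 15.0) and 6.23 ± 1.67 times in littermates (4.67 to 7.99; SD, n = 4 each), ranges that overlap. Ifnar1 exceeded Ifnar2 by 3.59 ± 0.24 and 4.04 ± 0.35 times, also with overlapping ranges (3.38 to 3.93 and 3.66 to 4.42). Differences in these ratios between genotypes were not tested. Il10rb exceeded Il10ra by 3.89 ± 0.85 and 3.12 ± 1.16 times. In 189N3 mice Ifngr2 exceeded Ifngr1 by 8.09 ± 2.49 times and in their littermates by 7.93 ± 1.57 times (SD, n = 3 each). None of the 18 ligands listed for these and related receptors (type I, gamma and lambda interferons and interleukins) was among the named loci, so no level is given for them.

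The kinases and STATs through which the receptors signal were mostly estimated below 0. Of 7 tested, 1 was estimated above 0 and 6 below in Dp(16)1Yey/+ mice, with a median of -0.25 and 0 at an unadjusted p under 0.05 (limma). Jak2, the kinase brought by IFNGR2, was at 2962 ± 548 against 2849 ± 295 (0.05, SE 0.16). Jak1, which serves all 3 receptor kinds, was at 1854 ± 496 against 2178 ± 372 (-0.25, SE 0.20), and Tyk2 at 180.1 ± 22.4 against 213 ± 19.9 (-0.24, SE 0.16; SD, n = 4 in each). Stat2, which acts in type I interferon signalling, gave -0.40 (SE 0.22), Stat3, the main factor behind interleukin-10, -0.55 (SE 0.35), and Irf9 -0.20 (SE 0.20). The libraries did not share this, as the median of the list against the littermate mean was 0.22 in replicate 0 and -0.48, -0.24 and -0.51 in replicates 1 to 3. Without replicate 1 the median fold change was -0.19, and with the pairs averaged -0.25, with 0 under that p in both. In 189N3 mice 4 were above 0 and 3 below, with a median of 0.03 and estimates from -0.02 to 0.19.

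Of 11 negative regulators, 10 were tested, 2 estimated above 0 and 8 below (median -0.17). Usp18, which binds IFNAR2 and damps its signal, was at 43.5, 1.18, 4.08 and 14.1 in Dp(16)1Yey/+ mice and 32.97, 29.7, 59.4 and 48.5 in littermates. The groups overlap through replicate 0, and the other 3 lie far lower (log2 fold change -2.18, SE 0.75; unadjusted p 0.0136 and adjusted p 0.909 in limma). In the 189N3 libraries and their littermates Usp18 was between 3.61 and 17.6. Cish, a suppressor of cytokine signalling, gave -0.42 (SE 0.38), and the phosphatase genes Ptpn2 and Ptpn6 gave 0.16 (SE 0.14) and 0.12 (SE 0.30). The list also had 2 above 0 and 8 below, with 1 lower at an unadjusted p under 0.05, without replicate 1 (median -0.11) and with the pairs averaged (median -0.18). Of all loci, 721 of 35999 and 271 of 36051 were under that limma p in either direction in these 2 settings.

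Other cytokine receptors served as a set of receptor genes with the normal copy number. Of 22 tested, 4 were estimated above 0 and 18 below in Dp(16)1Yey/+ mice (median -0.16), and 17 above and 5 below in 189N3 mice (median 0.15). In Dp(16)1Yey/+ mice Tgfbr1, a receptor for transforming growth factor beta, was the 1 with an unadjusted limma p under 0.05 (0.39, SE 0.16). It was at 3599 ± 408 against 2763 ± 456 (SD, n = 4 each), and 1.71% of all loci were higher at that p. Il1rap gave 0.25 (SE 0.22), the prolactin receptor Prlr -1.33 (SE 0.72) and the erythropoietin receptor Epor -0.60 (SE 0.37). Prlr was at 20.8, 4.70, 5.10 and 7.04 in Dp(16)1Yey/+ mice and at 7.21, 7.92, 47.5 and 66.7 in littermates. It passed the filter of 10 only through the littermates, and its estimate rests on littermate replicates 2 and 3, a nearly alike pair. Il6ra, among the 18 below 0, also passed only through the littermates (mean 11.3, against 8.74 in Dp(16)1Yey/+ mice). Without replicate 1, and with the pairs averaged, 0 were higher at an unadjusted p under 0.05 (medians -0.13 in both). In 189N3 mice 1 of the 22 was higher at that limma p (0.825% of all loci), Csf2rb (0.99, SE 0.44). Its 189N3 libraries were all above its littermates, as for 1.99% of loci. Csf2rb passed the filter only through the 189N3 libraries (mean 14.6, against 7.17 in littermates), so both counts rest on that group. The 4 cluster genes, for comparison, had a median of 0.47 in Dp(16)1Yey/+ mice and 0.62 without replicate 1.

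Interferon-stimulated genes, the targets of this signalling, were mostly estimated below the littermates. Of 47 listed, 44 were named and 34 tested in Dp(16)1Yey/+ mice, with 3 above 0 and 31 below, a median of -0.44 and 2 lower at an unadjusted p under 0.05 (1.82% of all loci; limma, 0 adjusted). The libraries did not share this: the median difference from the littermate mean was 0.33 in replicate 0, -0.78 in replicate 1, -0.64 in replicate 2 and -0.40 in replicate 3. Without replicate 1, 8 of 35 were above 0, the median was -0.24 and 2 were lower at that p, as 721 of all 35999 loci were in either direction. With the pairs averaged, 3 of 33 were above 0, the median was -0.43 and 0 were lower at that p. In 189N3 mice 8 of 32 were above 0 and 24 below, with a median of -0.20 (all loci -0.04). Of these 32, 2 were lower at an unadjusted limma p under 0.05 (1.05% of all loci) and 0 higher. All 189N3 libraries were below all littermates for 4 of 32 (2.99% of loci) and above them for 1 (1.99%). All Dp(16)1Yey/+ libraries were below all littermates for 1 of 34 (0.736% of loci) and above them for 0 (1.72%).

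Mx1, an antiviral GTPase gene that itself lies in the duplicated region, was at 11.9, 0, 2.04 and 7.04 in Dp(16)1Yey/+ mice and at 13.4, 14.8, 15.1 and 17.2 in littermates. All 4 duplication libraries were below all littermates, as for 0.736% of loci, with few fragments in each (log2 fold change -1.93, SE 0.68, adjusted p 0.909 in limma). Mx1 passed the filter of 10 only through the littermates (mean 15.1, against 5.24 in Dp(16)1Yey/+ mice). Its lack of overlap and its place among the genes counted lower rest on that group. Psmb8, among those below 0, also passed only through the littermates (mean 14.7, against 9.32 in Dp(16)1Yey/+ mice). In the 189N3 comparison Xaf1, which was below all littermates, passed only through them too (mean 15.8, against 9.60 in 189N3 mice). In the 189N3 line Mx1 was low throughout, at 0.82 to 5.19 in transgenic mice and 0.87 to 2.42 in littermates. Tap1, a peptide transporter of antigen presentation, was at 28.7, 17.6, 21.4 and 10.1 against 28.8, 24.7, 44.3 and 44.5 (-0.88, SE 0.34), with overlap. Ifi27 (0.52, SE 0.38) and Ifit2 (0.24, SE 0.19) had the smallest p-values among those above 0, and neither was under 0.05. Microglial markers, whose cells express many of these genes, summed to 857 to 1295 in Dp(16)1Yey/+ mice and 1035 to 1206 in littermates (3 of 11 higher), and endothelial markers to 1425 to 2937 and 2540 to 2685 (2 of 8 higher). Markers of astroglia and oligodendrocyte precursors summed to 4382 to 7569.8 and 6215 to 7007 (0 of 6 higher, median log2 fold change -0.37). Among the Dp(16)1Yey/+ libraries these markers and the endothelial ones (2937) were highest in replicate 0, as were the interferon-stimulated genes. Microglial markers were highest in replicate 1 (1295), where the interferon-stimulated genes were lowest. The part of these cell types in the values was not tested.

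**Figure D5:**
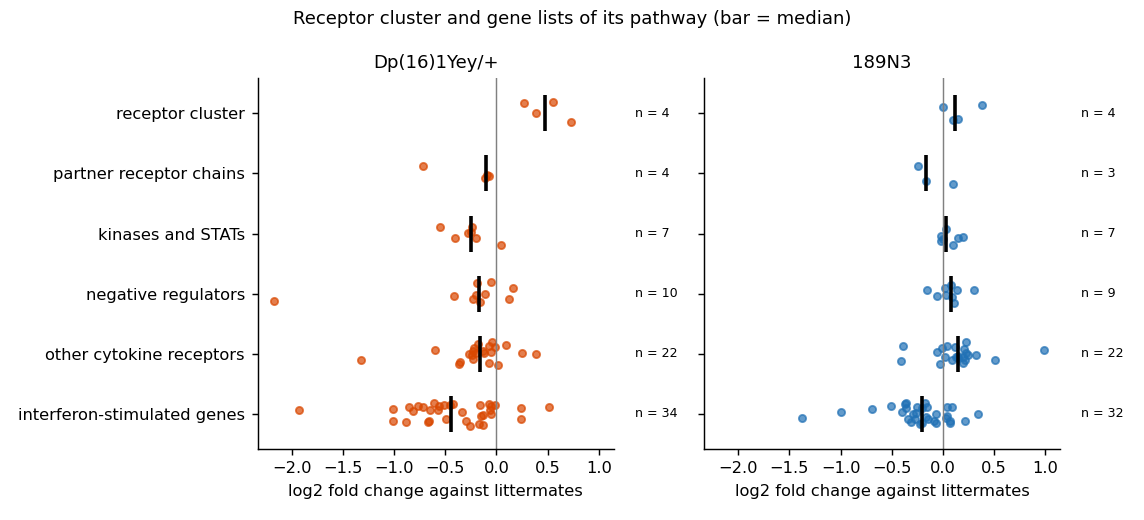
Log2 fold change against littermates (horizontal axis) of the 4 receptor genes and of the tested genes of each list, 1 point a gene, with the median as a bar, in Dp(16)1Yey/+ (left) and 189N3 (right). In Dp(16)1Yey/+ the receptor genes lie above 0, and the medians of the 5 lists below it.

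The isoform table divides the fragments of each locus by estimate. Of the Ifnar2 fragments, 75.1% went on average to the isoform TCONS_00036404 and 24.9% to TCONS_00036405. The share of the first ran from 59.9% to 100.0% between libraries, so its level depends on how the fragments were divided. It was at 462, 347, 312 and 344 in Dp(16)1Yey/+ mice and at 207, 205, 204 and 264 in littermates (366 ± 65.6 against 220.0 ± 29.7, SD, n = 4 each). Its log2 fold change was 0.73 (SE 0.18), with an unadjusted p of 0.00315 and an adjusted p of 0.945 over 60652 isoforms in limma. The second was at 203, 0.00787, 171 and 76.5 against 96.8, 98.1, 136 and 55.1, with almost nothing assigned to it in replicate 1. The Ifngr2 fragments divided into 45.7% and 52.7%, with log2 fold changes of 0.70 (SE 0.27) and 0.81 (SE 0.34) for TCONS_00036422 and TCONS_00036423. For Ifnar1, 88.4% went to 1 isoform (0.35, SE 0.19), and for Il10rb the shares varied too widely between libraries to be compared.

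Unnamed loci lie opposite to Ifnar1 and Ifnar2, and as the strand setting of the counting is not stated in the sources used here, their reads and those of the receptor genes cannot be told apart with certainty. The locus XLOC_021606, opposite to Ifnar1, held 26.4% as many fragments as Ifnar1. It gave 942, 634, 1102 and 1167 in Dp(16)1Yey/+ mice and 652, 660.1, 522 and 513 in littermates, with replicate 1 inside the littermate range (log2 fold change 0.68, SE 0.21; adjusted p 0.909 in limma). Opposite to Ifnar2, XLOC_021604 held 29.0% as many as Ifnar2 and gave 169, 62.3, 173 and 209 against 126, 136, 61.5 and 83.9, with overlap (0.53, SE 0.38).

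After the mean of each mouse line was subtracted, the receptor genes varied together over the 14 libraries, with Pearson's r from 0.63 to 0.90 between members. These libraries share genotype, depth and preparation, so the values are a description. Among 11239 named loci with a mean of at least 100, the 3 most like Ifnar1 were Cxadr (r = 0.95), Bach1 (0.93) and Wrb (0.92). The 3 most like Ifnar2 were Dscr3 (0.92), Bach1 (0.92) and 1110004E09Rik (0.91), and the 3 most like Ifngr2 were Atp5j, Morc3 and Atp5o (0.93, 0.93 and 0.92). All of these lie in the duplicated region. The 3 most like Il10rb, Ttc38, Prkcd and Cstf3 (0.82 each), do not. Without the 2 farthest libraries r was 0.62, 0.80 and 0.73 for these 3. It was then 0.79 to 0.92 for the loci most like the other members, and 0.55 to 0.84 between members.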

How the data were processed

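Polyadenylated RNA (so the labels; the methods describe a stranded total RNA kit) of embryonic hippocampus was sequenced as paired-end reads of 100 bp. The authors mapped reads to mm10 with TopHat and Bowtie, merged the Cufflinks assemblies, and corrected the quantification for fragment bias and for reads with several map positions; versions are not given in the sources used here. Unnamed loci, which the methods say were removed, are in the deposited tables and were kept. The signal values the authors deposited are fragments per locus, or estimated fragments per isoform, divided by 1 size factor per library, and over 99.99% of nonzero values in each library were whole multiples of its step (tolerance 0.1).

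The transcript map was joined to the gene table by matching loci whose isoforms sum to the row in all 14 libraries, since transcript numbers shift by up to 11. This matched 49015 loci and named 17486. Coordinates and exon lengths are from GENCODE vM21.

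Values were transformed to log2(value + 1), so fold changes of low genes are understated, and limma 3.58.1 (R 4.3.3), without covariates and with a trended prior variance, compared each transgenic group with the littermates of its line. Loci entered a test if their mean in the libraries compared was 10 or more. The difference between models was the interaction of the 4 groups. P-values were adjusted over all loci by Benjamini-Hochberg at 0.05. Members were also tested by exact permutation (Python 3.11.15, SciPy 1.17.1). The plan assumed scaled values and kept edgeR 4.0.16 and DESeq2 1.42.0, on recovered fragments, as alternatives. The procedure was tested on simulated data. Intervals and counting errors cover counting error or library spread only.

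Named genes were the members, all partner chains, kinases and STATs (1 of which is counted in its list but not reported here), the 2 genes with the smallest p in each direction of each other list, the 8 nearest tested genes on each side, and the 3 loci most like each member. Csf2rb, Il6ra, Psmb8 and Xaf1 are named besides, because they passed a filter only through 1 group. The members and lists were chosen with earlier results of these data known. All 14 libraries entered the main tests.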

Additional observations from a re-analysis of the deposited data

How the results depend on the processing

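Other pseudocounts (0.1 and 10), filters, scalings, tools, a common fit, a replicate block and each library left out were tried; averaging nearly alike littermates was planned too, and list counts without replicate 1 were added after seeing the data. Of 269 recomputed member fold changes, 258 kept their direction and side of the threshold, with a smallest adjusted p of 0.374. The filters, the common fit and the replicate block left the fold changes as they were and could change only p, so the direction in those settings was fixed. In Dp(16)1Yey/+ the 4 members stayed above 0 throughout (Ifnar2 0.38 to 0.70, Ifngr2 0.62 to 0.84, Ifnar1 0.25 to 0.55, Il10rb 0.13 to 0.38). Il10rb could not be tested with a filter of 100.

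Ifnar2 in 189N3, estimated at -0.00, turned to 0.039 with median-ratio size factors, 0.0021 in edgeR, 0.047 in DESeq2 and 0.014 as a ratio of means, and ranged from -0.17 to 0.15 with 1 library left out. Leaving out 1 library gave -0.13 (without 189N3 replicate 2) to 0.32 for Ifngr2 in 189N3, and -0.26 to 0.09 for the difference of Il10rb between models, which was 0.093 without 189N3 replicate 2 and 0.0019 without Dp(16)1Yey/+ replicate 1. The exact permutation p of Ifnar2 and Ifngr2 was 0.133 with littermates averaged. The cause of these shifts was not tested.

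Against 0 loci called in Dp(16)1Yey/+, DESeq2 called 8 and leaving out a library 0 to 3, the 3 without replicate 1. Against 0 in 189N3, median-ratio size factors gave 4, DESeq2 15 and leaving out a library 0 to 28 (28 without littermate replicate 1, 2 without littermate replicate 0), and for the difference 0 to 1 (1 without Dp(16)1Yey/+ replicate 1). Interferon-stimulated genes above 0 numbered 8 without replicate 1 and 3 with it.

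The replicate number as a block gave 72 calls in 189N3 and 0 in Dp(16)1Yey/+, and changed the call of no member. Same-numbered libraries did not deviate together: r was -0.50 to -0.02 over 3 pairs in 189N3 and -0.58 to -0.03 over 4 in Dp(16)1Yey/+. The number is therefore not shown to mark a pairing. Between differently numbered libraries r ran from -0.66 to 0.64 in Dp(16)1Yey/+ and from -0.28 to 0.56 in 189N3. Whether libraries of the 2 genotypes share a litter or preparation is not stated, and the main tests had no block for it.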
